A study of Mus musculus with 24 samples.

Results

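The cytosolic ribosomal protein genes were followed in glial cells of adult mice. They were taken by name: protein-coding genes with an Rpl or Rps number, optionally ending in a or x, together with Rplp0, Rplp1, Rplp2 and Rpsa, with pseudogenes and the Rps6k kinases left out. The rule found 76 genes, 30 of the small (40S) and 46 of the large (60S) subunit, among 56783 gene identifiers in the count tables. The rule leaves out a few ribosomal proteins with other names (Rps3a1, Fau and Rack1 among them), which are described apart. RNA sequencing covered 24 libraries in 8 groups of 3: microglia or astrocytes, from mice given saline or lipopolysaccharide (LPS, a bacterial cell wall component that sets off inflammation), of control or Serpine2 knockout genotype. Serpine2 encodes a secreted inhibitor of serine proteases, and controls were littermates that kept at least 1 working Serpine2 allele. Microglia were purified from whole brain and astrocytes from cerebral cortex by binding to antibody-coated dishes. The LPS dose, the interval after injection and the exact age were not given in the sources used here, and nothing in the labels said whether a library came from 1 animal, so that p-values measure the spread between these libraries.

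Ribosomal proteins coat the ribosomal RNAs and are needed in equal amounts, because each cytosolic ribosome holds a single copy of nearly every one of them. Rplp1 and Rplp2, which form the acidic stalk on the base Rplp0, are the exception and are present as dimers. Most of their mRNAs begin with a run of pyrimidines at the cap, the terminal oligopyrimidine (TOP) motif, through which growth signals of the mTOR pathway set how strongly they are translated. Ribosomal protein genes also left many processed pseudogenes in the mouse genome, copies that can share reads with their parents.

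The RefSeq promoter table (GRCm38.p6) held a window for 56 of the 76 genes. A run of at least 8 letters, each C or T and the first a C, lay on the sense strand within 50 bases of the annotated start in 48 of those 56 genes, and in 54 of their 66 windows (81.8%), against 28.8% of all 32851 windows. On the opposite strand the same search matched 21.2% of the members' windows and 31.6% of all windows. Such a match is a description of the letters and shows no use of the motif. A set of 8 of these starts is shown, from members described below, each as 30 bases, 5′ to 3′ along the gene, with the run in capitals: Rpl14, Rpl7a and Rpl4 were called after LPS in microglia, Rpl18, Rps15, Rps18 and Rps9 in astrocytes, and Rps6 in neither.
Rpl14: agggcgggCCCTCTCTCTTCTCgctgagcg
Rpl7a: caattCCCTCTTCTTTCTTTCTCCagcagc
Rpl4: agcgtggCCTTCTCCTCTCCCCgtcatggt
Rpl18: tcgcaggccgCTCTTTCCCCgcccactccg
Rps15: cagcccgtaCTTCCTTTTCCgagtaaccgc
Rps18: tcacttccgCTCTCTCTTCCacaggaggcc
Rps9: aaccgccttgtCTCTCTTTgtctcgggcct
Rps6: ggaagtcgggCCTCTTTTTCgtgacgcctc
These stretches lie at chr9:120571501-120571530 (Rpl14, plus strand), chr2:26910790-26910819 (Rpl7a, plus), chr9:64173406-64173435 (Rpl4, plus), chr7:45718062-45718091 (Rpl18, plus), chr10:80292447-80292476 (Rps15, plus), chr17:33955647-33955676 (Rps18, minus), chr7:3704025-3704054 (Rps9, plus) and chr4:86857349-86857378 (Rps6, minus). The run was as long in Rps6 (10 letters) as in Rpl18 (10 letters). Rplp0 and Rps4x, described below, had windows with no such run.

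Microglial libraries held 4506142 to 13621776 gene counts each, and astrocyte libraries 10944765 to 25135252. Reads outside annotated genes made up 64.6% to 77% of the reads in microglia and 20.5% to 26.9% in astrocytes. Mitochondrial and ribosomal RNA genes took 2.45% to 6% of microglial and 44.3% to 64.2% of astrocyte gene counts. Astrocyte markers summed to at least 15101 CPM (counts scaled to library size) in every astrocyte library and to at most 661 in microglia. Microglial markers summed to at least 1678 CPM in microglia and to at most 460 in astrocytes, while neuronal markers stood at 3451 to 4376 CPM in the microglial libraries. Serpine2 itself was at 46.4 to 169 CPM in control libraries and at 16.4 to 22.2 CPM in knockout libraries. Sex read from transcripts matched the labels in 23 of 24 libraries; the exception was the LPS control microglia library labelled replicate 1. The LPS astrocyte libraries labelled replicate 2, of both genotypes, stood apart, with mitochondrial and ribosomal RNA at 63.8% and 64.2% and reads outside genes at 20.5% and 21.5%.

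The members were detected in every library, and all 76 passed the filter on low counts in both cell types. Together they made up only 0.154% to 0.365% of gene counts in microglia and 0.0883% to 0.174% in astrocytes, 8230 to 37680 reads per library. The lowest count of any member in a library ran from 3 to 23. Counts between genes are compared below per kilobase of the principal GENCODE transcript.

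The summed level of the ribosomal protein mRNAs was higher after LPS in both cell types. In microglia the summed CPM was 2141, 1403 and 2249 in the 3 saline control libraries and 2272, 1905 and 1572 in the saline knockouts. After LPS it was 2594, 2285 and 3662 in controls and 3042, 2827 and 3214 in knockouts. All 6 LPS libraries stood above all 6 saline libraries, the nearest being 2285 against 2272. In astrocytes the saline sums were 1113, 1035 and 836 CPM in controls and 892, 1153 and 938 in knockouts. The LPS sums were 1513, 1906 and 1156 in controls and 1369, 2027 and 1336 in knockouts. Again the groups did not overlap, by a margin of 1156 against 1153, and the highest sums, 1906 and 2027, were those of the replicate 2 libraries that stood apart. As a share of gene counts other than mitochondrial and ribosomal RNA, the members took 0.158% to 0.227% in saline and 0.251% to 0.378% in LPS microglia. In astrocytes the corresponding shares overlapped, at 0.193% to 0.271% in saline and 0.261% to 0.443% in LPS. In bulk preparations of this kind, more cells of a kind that is rich in these mRNAs and more mRNA per cell cannot be told apart.

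**Figure D1:**
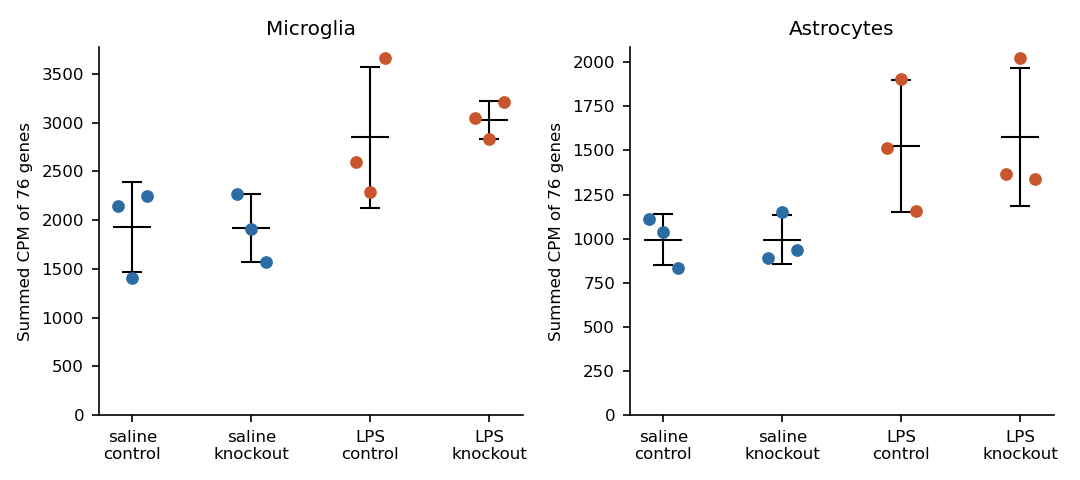
Summed CPM of the 76 ribosomal protein genes in each library (points), with the mean and SD of the 3 libraries of each group (bars), microglia left and astrocytes right. All LPS libraries (orange) lie above all saline libraries (blue) in each cell type, and control and knockout libraries cover similar ranges.

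In microglia, averaged over genotypes, 12 of the 76 members rose after LPS and none fell (15.8%, at an edgeR adjusted p under 0.05). Of all 22230 genes tested, 2.19% were called higher and 0.513% lower. The members' median log2 fold change was 0.35, against -0.03 over all genes. Above 0 were 64 of 76 members (84.2%), against 45.3% of all genes. At an unadjusted p under 0.05 there were 31 members (40.8%), all higher, against 12.8% of all genes in either direction. In 10 members all 6 LPS libraries lay above all 6 saline libraries (13.2%, against 1.92% of all genes), and in none the reverse (0.477% of all genes).

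Rplp0, the base of the acidic stalk that recruits translation factors, had the largest fold change of any member in microglia. Its level was 50.5, 15 and 40.4 CPM in saline controls and 49.9, 41.3 and 27.5 CPM in saline knockouts. After LPS it was 84.5, 61.1 and 137 CPM in controls and 96, 111 and 126 CPM in knockouts. No LPS library fell within the saline range. On the log2 scale the rise was 1.45 (SE 0.27, edgeR adjusted p = 0.00602). Rpl32, a 60S protein, had the smallest p: it was at 52.7, 26.3 and 67.2 CPM in saline controls and 66.6, 60.2 and 49.1 CPM in saline knockouts. Its LPS levels were 103, 93.8 and 191 CPM in controls and 132, 143 and 180 CPM in knockouts. These groups did not overlap either, with a log2 fold change of 1.39 (SE 0.23, edgeR adjusted p = 0.00264). In both genes the library labelled saline control 2 was the lowest.

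Rps2, which sits near the mRNA entry channel of the 40S subunit, ran from 18.6 to 34.8 CPM in saline (median 29.5) and from 42.2 to 77.1 CPM in LPS microglia (median 58.3), a log2 fold change of 1.08 (SE 0.19, edgeR adjusted p = 0.00431). Its groups did not overlap. Rps3, a 40S protein at the mRNA entry that also acts in DNA repair, ran from 60.2 to 137 CPM in saline and from 139 to 257 CPM after LPS (log2 fold change 0.95, edgeR adjusted p = 0.0225). Its groups were also separate, by 139 against 137 CPM.

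The other 60S genes called in microglia were Rpl14 (log2 fold change 0.87, edgeR adjusted p = 0.00746), Rpl39 (1.13, 0.0119), Rpl7a (0.82, 0.0216), Rpl41 (1.01, 0.0258), Rpl4 (0.69, 0.0356) and Rpl8 (0.95, 0.0421). Rpl39, an X-linked gene for a tiny protein of the exit tunnel, rose from 5.97 to 15.8 CPM in saline to 17 to 31.2 CPM in LPS. Rpl41 encodes the smallest ribosomal protein, and its groups overlapped slightly, with a saline maximum of 55.7 and an LPS minimum of 54.8 CPM. Rpl4, a protein of the exit tunnel, and Rpl7a overlapped too (saline up to 135 and 27 CPM, LPS from 116 and 24.5 CPM).

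Of the 12 calls, 7 held in all 22 alternative fits of this comparison, among them Rpl32, Rplp0, Rps2, Rpl14 and Rpl39. The sexes were unbalanced, since the labels give male, female, male for the saline and female, male, female for the LPS libraries of each genotype. With sex as a term, 7 members were called (the same 7), with a median log2 fold change of 0.33. Within males as labelled, the summed CPM was 1572 to 2272 in 4 saline libraries and 2285 and 2827 in LPS. Within females as labelled it was 1403 and 1905 in saline and 2594 to 3662 in 4 LPS libraries. The library at 2594, LPS control replicate 1, read as male from its transcripts. Between the same groups 5 of 10 microglial markers were called lower and 1 higher (sum 2060 to 4949 CPM in saline and 1678 to 3177 CPM in LPS). So were 3 of 12 neutrophil markers called lower (756 to 2594 and 414 to 1101 CPM), and no neuronal marker was called (3459 to 4376 and 3451 to 3844 CPM). Of 5 tested erythrocyte markers 4 were called lower, and their sums did not overlap (48 to 161 and 31.1 to 41.9 CPM). Called higher were 2 of 6 tested lymphocyte markers (4.48 to 14.8 and 13.4 to 38.8 CPM) and 1 of 7 tested monocyte markers (152 to 252 and 160 to 388 CPM). No astrocyte, oligodendrocyte, endothelial or border macrophage marker was called. Their part in the rise of the ribosomal protein genes was not tested.

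In astrocytes 17 of the 76 members rose after LPS, averaged over genotypes, and none fell (22.4%). The background was 4.98% of 18188 genes called higher and 1.92% lower. The median log2 fold change of the members was 0.41, against 0.01 over all genes. Above 0 were 65 members (85.5%), against 50.9% of all genes. At an unadjusted p under 0.05 there were 33 (43.4%), all higher, against 20.1% of all genes. In 14 members (18.4%) the 6 LPS libraries lay above all 6 saline libraries, against 2.65% of all genes, and in none the reverse (1.45%).

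Rplp0 led here as well. It was at 14.2, 17.5 and 11.1 CPM in saline controls and at 12.2, 12.5 and 10.3 CPM in saline knockouts. After LPS it reached 29.5, 44.1 and 27.8 CPM in controls and 26.4, 50.3 and 38.8 CPM in knockouts. The lowest LPS library was above the highest saline library in either genotype, and the rise was 1.48 on the log2 scale (SE 0.20, edgeR adjusted p = 0.0003). Rps4x, the X-linked 40S protein, was at 23.1, 24.4 and 16.4 CPM in saline controls and at 22.9, 23.3 and 18.6 CPM in saline knockouts. With LPS it was at 44.3, 61.7 and 38.4 CPM in controls and at 30.3, 62.5 and 53 CPM in knockouts. Its groups were separate (log2 fold change 1.17, SE 0.20, edgeR adjusted p = 0.00176). Rpl29, a 60S protein that also binds heparin outside the cell, ran from 6.48 to 10.5 CPM in saline and from 12.5 to 27.1 CPM in LPS (log2 fold change 1.26, SE 0.23, edgeR adjusted p = 0.00328). These 3 genes were the only ones of the 17 called in all 24 alternative fits.

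Rplp1, a stalk protein, had a log2 fold change of 1.07 in astrocytes (SE 0.27, edgeR adjusted p = 0.0228), with 20.5 to 47.1 CPM in saline and 43.8 to 103 CPM in LPS. Its groups overlapped through the saline control 1 library at 47.1 CPM. Rpl41 (log2 fold change 1.06), Rpl32 (1.05) and Rps2 (0.96) had edgeR adjusted p of 0.00665, 0.00646 and 0.00903. Rpl8 followed with 0.86 and Rps3 with 0.83. Rps15, Rps18, Rps21, Rps9 and Rps20 of the 40S and Rpl18 of the 60S subunit were also called, with log2 fold changes from 0.71 (Rps9) to 0.86 (Rps15). Rps20, a 40S head protein, ran from 12.9 to 22.2 CPM in saline and from 19.2 to 40.8 CPM in LPS, and was the member nearest the threshold (edgeR adjusted p = 0.0455).

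The astrocyte calls leaned on the replicate 2 libraries. Without them in either genotype 3 members were called (Rplp0, Rps4x and Rpl29) and the median log2 fold change was 0.35. Without the replicate 3 LPS libraries 25 were called, with a median of 0.61. Single libraries that lowered the count by over 1.5 times when left out were saline control 2 (11 called) and 3 (8), saline knockout 1 (9) and 3 (11), and LPS control 2 (9) and LPS knockout 2 (11). Markers of other cells also moved in LPS astrocyte libraries: 7 of 10 endothelial markers were called higher (sum 4.23 to 13.1 CPM in saline, 17.7 to 90.7 CPM in LPS), as were 2 of 3 tested neutrophil markers (0.41 to 2.16 and 2.57 to 26.2 CPM; Elane, Ltf and Camp were at 0 in every library) and 1 of 3 tested monocyte markers (32.6 to 64.1 and 52.7 to 165 CPM). In the microglial list 1 was called higher and 1 lower (130 to 188 and 124 to 460 CPM). Of the neuronal markers 4 of 10 were called higher (309 to 378 and 285 to 425 CPM), as was 1 of 6 tested border macrophage markers (2.29 to 7.75 and 2.83 to 10.3 CPM). Of the oligodendrocyte markers 4 of 10 were called lower (2403 to 4680 and 1992 to 5227 CPM). Of the astrocyte markers 2 of 10 were called higher (15661 to 19336 and 15101 to 22041 CPM), and no erythrocyte marker was called. Their part in the result was not tested.

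The responses of the members had the same sign in most cases in both cell types. Called in both were 7 genes, among them Rpl32, Rpl41, Rpl8, Rplp0, Rps2 and Rps3, which is 58.3% of the microglial and 41.2% of the astrocyte calls. Another 5 were called in microglia alone (Rpl14, Rpl39, Rpl4 and Rpl7a among them) and 10 in astrocytes alone. The 2 cell types share no library, and 57 members had a positive log2 fold change in both. The 4 that were negative in both were Rpl10, Rpl24, Rpl30 and Rps6, none of which was called. The overlap of calls, the shared signs and the correlation given next were not counted over all genes. They therefore describe the members alone. Across the 76 members the fold changes in the 2 cell types had a Pearson r of 0.67 and a Spearman rho of 0.71; the members are not independent replicates, and they share copies, lengths and levels between the cell types (Spearman rho of the levels 0.89). A call in 1 cell type alone is not a difference between them: the difference in the LPS response of microglia and astrocytes was tested, and no member was called in controls or in knockouts (0.203% and 0.272% of 24607 genes were). The 3 members with the smallest unadjusted p in those tests were Rpl7a in knockouts (difference 0.99, 95% interval 0.06 to 1.92), Rps28 in controls (1.24, -0.06 to 2.54) and Rps10 in knockouts (-1.41, -2.95 to 0.14). DESeq2 called no member in those tests either, and edgeR gave 0 members in controls and 1 in knockouts at an unadjusted p under 0.05 (10.1% and 10.9% of all genes).

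**Figure D2:**
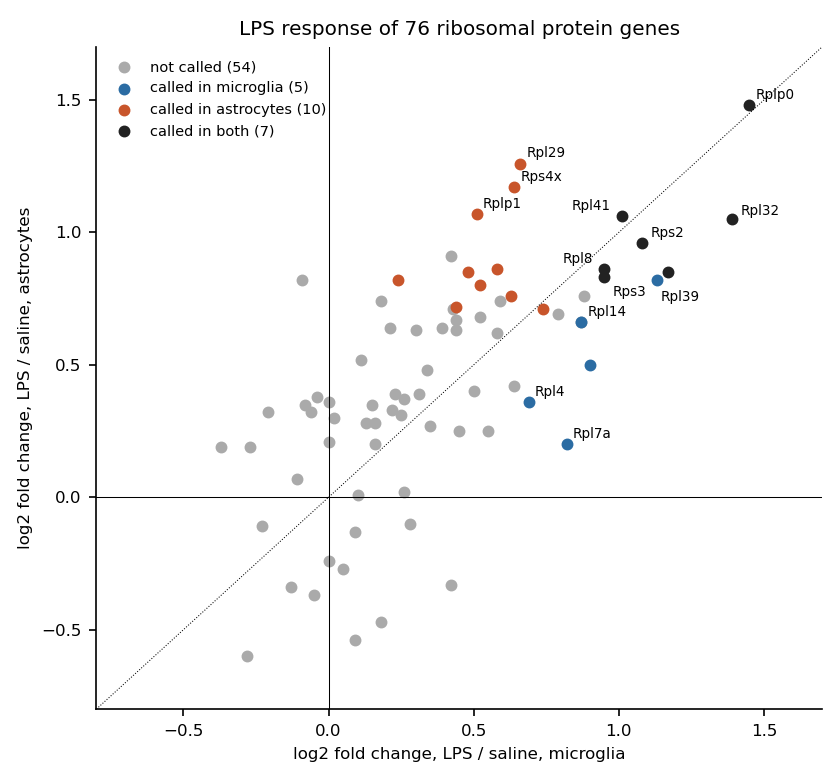
Log2 fold change of LPS over saline for each of the 76 genes, averaged over genotypes, in microglia (x axis) and astrocytes (y axis), with the dotted line marking equal values. Most genes lie in the upper right quadrant, and the 7 called in both (black) run from Rps3 to Rplp0.

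**Figure D3:**
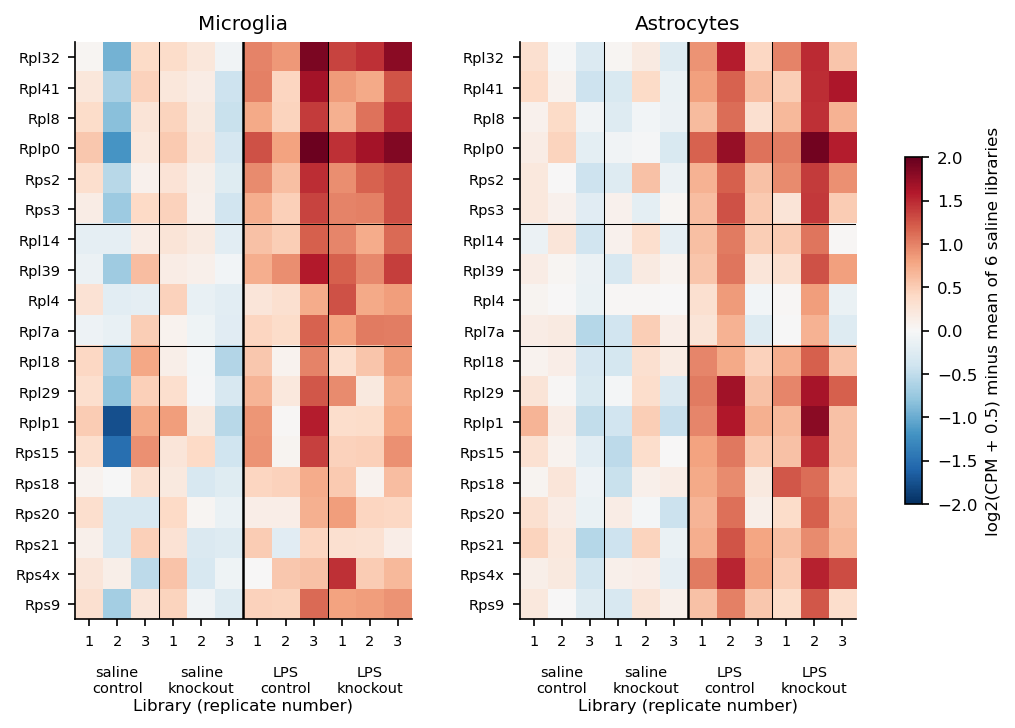
Each library's log2(CPM + 0.5) minus the mean of the 6 saline libraries of its cell type, for 19 genes called in either cell type (those called in both at the top, then those called in microglia alone, then in astrocytes alone). Red is higher; the saline control 2 microglia library is low for many genes and the replicate 2 LPS astrocyte libraries are the reddest.

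By role, the stalk genes Rplp0, Rplp1 and Rplp2 had log2 fold changes of 1.45, 0.51 and 0.31 in microglia and 1.48, 1.07 and 0.39 in astrocytes, so that the stalk base moved more than Rplp2 in both. Rplp2 was not called (edgeR adjusted p = 0.602 and 0.411). Rpl5 and Rpl11, which carry the smallest ribosomal RNA into the 60S subunit and can bind the p53 regulator Mdm2 when assembly fails, were at -0.21 and 0.13 in microglia and at 0.32 and 0.28 in astrocytes, and were not called. Rpl5 ran from 16.4 to 18.6 CPM in saline and from 11.3 to 20.1 CPM in LPS microglia. Rps6, the substrate of S6 kinases, was at 7.24 to 10.4 CPM in saline and 7.41 to 9.99 CPM in LPS microglia (log2 fold change -0.13, 95% interval -0.49 to 0.24). In astrocytes it ran from 3.3 to 7.19 CPM and from 2.64 to 6.42 CPM (-0.34, -0.93 to 0.24). Its ranges overlapped almost wholly in each cell type.

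Rpl13a, a 60S protein known to leave the ribosome for a translational silencing complex in interferon-treated myeloid cells, ran from 14.2 to 29.1 CPM in saline and 13.6 to 22.7 CPM in LPS microglia (log2 fold change 0.00, 95% interval -0.40 to 0.40). Rpl22 and Rpl38, tied in other tissues to selective translation, were at 0.64 and 0.50 in microglia and 0.42 and 0.40 in astrocytes, not called. Rps27a, made as a fusion with ubiquitin, was at 0.05 in microglia and -0.27 in astrocytes. Rps19 and Rps26, often mutated in Diamond-Blackfan anaemia, were at 0.52 and 0.88 in microglia and at 0.68 and 0.76 in astrocytes, the nearest to a call being Rps26 in astrocytes (edgeR adjusted p = 0.0514), whose groups there did not overlap (6.64 to 12.3 and 13.3 to 26.7 CPM). Rpsa, also known as a laminin receptor, was at 0.87 and 0.66 (edgeR adjusted p = 0.108 and 0.197). Of 20 genes known from Diamond-Blackfan anaemia, 16 were above 0 in microglia with none called, and 17 in astrocytes with Rpl18 called (medians 0.17 and 0.32), so that 1 of 20 stood beside 4.98% of all genes called higher in astrocytes and 0 of 20 beside 2.19% in microglia. Of the X-linked genes, Rpl39 was called in microglia and Rps4x in astrocytes, while Rpl10 (-0.23 and -0.11) and Rpl36a (0.10 and 0.01) were not called in either. The 40S members had medians of 0.44 in microglia and 0.67 in astrocytes and the 60S members 0.29 and 0.38, with 4 and 9 of 30 and 8 and 8 of 46 called.

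The members differed in how far their transcripts can be told from other genes. The share of 50-base stretches of the principal transcript found in no other gene's transcript was lowest in Rps27 (1.35%) and had a median of 43.9%. A member shared such stretches with a median of 11 other genes and, for Rpl7a, with 123. In microglia 9 of the 30 members with 50% or more unique sequence were called, with a median log2 fold change of 0.56. Of the 46 members under 50%, 3 were called, with a median of 0.22. Astrocytes had 11 of 30 (median 0.67) and 6 of 46 (median 0.33). The Spearman rho of the fold change with the unique share over the 76 genes was 0.42 in microglia and 0.36 in astrocytes, as a description. Rpl10, Rpl5, Rpl9, Rpl35 and Rps27, each under 10% unique, were among the members not called. Counts of those genes are uncertain, since the counting of shared reads was not given in the sources used here. The same limit holds for called members with little unique sequence. Among them were Rps18 (13.3%), Rpl7a (18.8%), Rps2 (21%), Rps4x (27.8%) and Rpl29 (33.4%). Named ribosomal protein pseudogenes also had more reads after LPS. Summed over 300 of them, they stood at 409 to 727 CPM in saline and 799 to 1286 CPM in LPS microglia. In astrocytes they stood at 340 to 462 and 500 to 934 CPM. Of the 88 pseudogenes tested in microglia 14 were called higher, and 11 of 82 in astrocytes, with none lower and medians of 0.70 and 0.72. Of all genes 2.19% and 4.98% were called higher, with medians of -0.03 and 0.01. The medians of the members, 0.35 and 0.41, were lower than those of the pseudogenes. These sets are unlike, since all 76 members but only 88 and 82 of the 300 pseudogenes passed the filter on low counts. A rare gene can pass that filter through the groups where it is high, which can raise the pseudogene medians. Whether the reads counted for pseudogenes came from them or from the parent mRNAs was not tested.

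**Figure D4:**
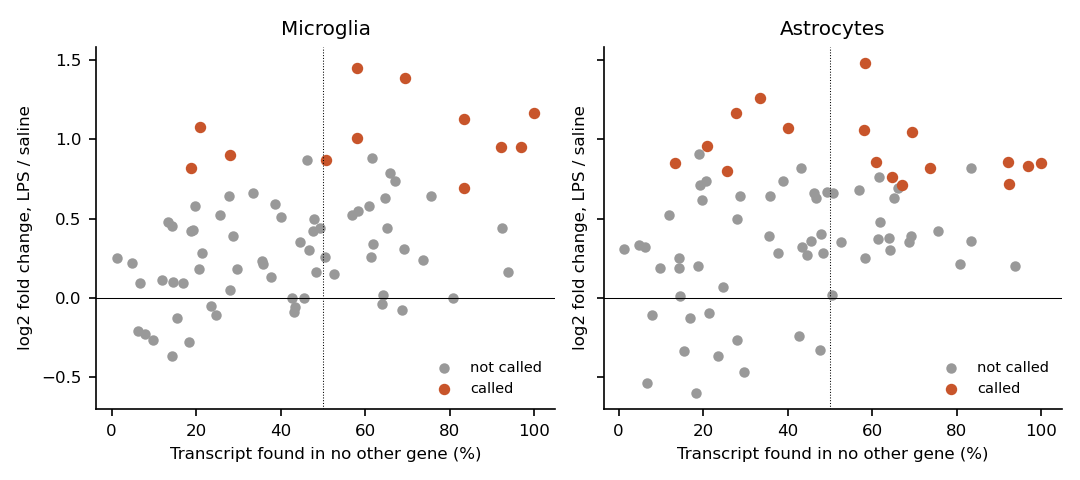
Log2 fold change of LPS over saline (y axis) against the percent of the principal transcript's 50-base stretches found in no other gene (x axis) for the 76 genes, microglia left and astrocytes right, with a dotted line at 50%. Called genes (orange) lie on either side of the line, 9 of 12 right of it in microglia and 11 of 17 in astrocytes.

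Within a single genotype, with 3 libraries against 3, few members passed. In control microglia none was called (19 at an unadjusted p under 0.05, all higher, against 7.28% of all genes; 0.526% of all genes were called higher), and DESeq2 called 4. The 3 smallest p were those of Rpl32 (log2 fold change 1.40, 95% interval 0.71 to 2.09), Rps2 (1.06, 0.49 to 1.63) and Rplp0 (1.41, 0.60 to 2.22). In knockout microglia 1 member was called (1.01% of all genes were called higher), and 25 members had an unadjusted p under 0.05, all higher, against 7.61% of all genes. Rpl32 (1.37) and Rpl7a (1.06) had the next smallest p in knockouts. Control astrocytes had 1 call, Rplp0 (1.24, edgeR adjusted p = 0.0474; background 0.775%), and knockout astrocytes had 4, Rplp0 (1.72, 0.00718), Rpl8 (1.13, 0.0401), Rps4x (1.17, 0.0457) and Rpl41 (1.28, 0.0468), against 1.35% of all genes. At an unadjusted p under 0.05 there were 20 members in control and 24 in knockout astrocytes, all higher, against 12.1% and 13.7% of all genes. The medians were close in the genotypes, 0.35 and 0.34 in microglia and 0.49 and 0.50 in astrocytes. These counts of calls were fragile: leaving out single libraries moved them between 0 and 8 in knockout microglia and between 0 and 5 in knockout astrocytes.

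No ribosomal protein gene was called for the loss of Serpine2. In microglia edgeR called no gene at all between the genotypes, so that these tests missed Serpine2 itself. It stood at 46.4 to 96.3 CPM in saline control and 17.6 to 20.6 CPM in saline knockout microglia. After LPS it stood at 48.9 to 87.7 CPM in control and 16.9 to 19.2 CPM in knockout microglia. In saline microglia no member was called in knockouts against controls by edgeR or DESeq2, nor was any of 22230 genes by edgeR, and 1 member had an unadjusted p under 0.05, against 1.58% of all genes (median log2 fold change -0.05, against -0.05 over all genes). That gene was Rpl10a, a 60S protein of the L1 stalk, at 23.3, 22.2 and 27.7 CPM in controls and 16.6, 16.4 and 12.5 CPM in knockouts (-0.69, 95% interval -1.13 to -0.25, unadjusted p = 0.00472, edgeR adjusted p = 1). Its 3 knockout libraries lay below its 3 controls, but the share of all genes separated in this way was not counted. In LPS microglia the median was 0.01, and Rps10 (-0.78, -1.44 to -0.11) and Rpl4 (0.52, 0.02 to 1.02) had an unadjusted p under 0.05 (1.51% of all genes did; no gene was called), with Rpl10 next (-0.55, -1.17 to 0.07). Rpl10a in LPS microglia was at 23.4, 20.6 and 24.7 CPM in controls and 18.5, 20.5 and 17.3 CPM in knockouts.

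In saline astrocytes the median was 0.03 with no call (0.0055% of all genes were called), and the 1 member with an unadjusted p under 0.05 (2.75% of all genes) was Rpl13a (1.21, 0.11 to 2.30). A single library carried that value: the knockouts were at 5.64, 17.6 and 5.66 CPM and the controls at 5.66, 3.65 and 3.24 CPM. In LPS astrocytes the median was 0.05, no member was called (0.0055% of all genes were) and none had an unadjusted p under 0.05 (2.73% of all genes). Rps6 (0.78, -0.06 to 1.62), Rps27a (1.10, -0.34 to 2.54) and Rps23 (-0.62, -1.58 to 0.33) came closest. A test that misses the threshold does not show equal levels: the 95% intervals of the knockout effect reached a median of 0.59 to either side on the log2 scale in saline and 0.58 in LPS microglia, and 0.75 and 0.74 in astrocytes. The intervals lay within 1 log2 unit of 0 for 65 of 76 members in saline and in LPS microglia, and for 37 and 41 in astrocytes.

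Nor was any member called for a difference between the genotypes in the LPS response. The median of the genotype difference was 0.07 in microglia (0.06 over all genes) and 0.03 in astrocytes (0.05), with no call by edgeR or DESeq2 and no member at an unadjusted p under 0.05 in edgeR (1.13% and 2.6% of all genes). The smallest p were those of Rps15a in microglia (-0.48, 95% interval -1.02 to 0.06) and Rpl13a in astrocytes (-1.33, -2.87 to 0.21). The 95% intervals reached a median of 0.83 to either side in microglia and 1.06 in astrocytes, on the log2 scale.

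Levels per kilobase differed widely between members that the ribosome needs in equal number. In microglia the mean CPM per kilobase of the principal transcript was lowest in Rpl23a (2.3) and had a median of 25.6. Rpl35 (2.81) and Rpl24 (2.86) were next to the lowest, and Rpl32 (188) and Rps9 (161) were among the highest. In astrocytes it was lowest in Rps10 (0.666) and had a median of 12.2, with Rpl35 (0.916) and Rpl24 (1.09) next to the lowest and Rplp1 (95.5) and Rpl8 (92.1) among the highest. Rpl23a, Rpl35 and Rpl24 are 14.3%, 4.91% and 18.3% unique. The Spearman rho of level with unique share was 0.24 in microglia and 0.28 in astrocytes, as a description. Dividing by all annotated exons put Rplp1 (124 and 95.5 CPM per kilobase) highest in both.

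The direction of the difference between the cell types depended on the scaling. Cell type, brain region, preparation and the gene annotation of the count tables all differed and cannot be told apart. In saline controls 3 members were called higher and 35 lower in microglia than in astrocytes after TMM scaling over all 24 libraries (32.1% of all genes were called higher and 23.6% lower). The median log2 difference of the members was -0.70, against 0.38 over all genes. Scaled by library totals alone, 44 were higher and none lower, with medians of 0.91 and 1.98, and with RLE factors 9 were higher and 19 lower, with medians of -0.39 and 0.68. Under each of these the members lay below the median of all genes, by 1.07 to 1.08 log2 units. A change of scaling shifts all genes by about the same amount. That gap could therefore hardly differ between the scalings, and its steadiness is no separate result. Under TMM the lower members with the smallest p were Rpl4 (-1.97), Rpl22 (-1.87) and Rpl7 (-1.95), followed by Rpl8, Rpl23, Rps4x, Rpl14, Rpl7a, Rpl21 and Rps9 (-1.05 to -1.53), and the higher members were Rps10 (1.80), Rpl31 (1.12) and Rpl27 (0.97). With each of 6 libraries left out in turn, Rps10 was called in 6 fits, Rpl31 in 2 and Rpl27 in 1. The 38 calls fell to 21 without the saline control 2 microglia library and to 22 without the saline control 1 astrocyte library. Rpl8, Rpl23, Rps4x, Rpl14, Rpl7a, Rpl21 and Rps9 were positive with library totals.

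Other genes of the translation apparatus and its control are read against the 2.19% of all genes called higher in microglia and the 4.98% in astrocytes. Rack1, a 40S protein outside the naming rule that binds signalling kinases, ran from 105 to 217 CPM in saline microglia (median 157) and reached a median of 332 and a maximum of 406 CPM after LPS (log2 fold change 1.05, SE 0.19, edgeR adjusted p = 0.00482). In astrocytes it ran from 42.1 to 72.2 CPM and from 67.5 to 105 CPM (0.66, SE 0.18, edgeR adjusted p = 0.0306). Rack1 was the only one called of 13 genes listed outside the rule, with 10 tested in microglia and 11 in astrocytes. The list includes Rps4l, which is annotated as a transcribed processed pseudogene. Rps3a1 (0.22 and 0.39) and Fau (0.24 and 0.97) were not called. Rpl22l1, the paralogue of Rpl22, was at 6.41 to 17.5 CPM in saline and 4.23 to 10.7 CPM in LPS microglia (-0.42), and at 4.28 to 16.8 and 2.53 to 7.02 CPM in astrocytes (-0.88, edgeR adjusted p = 0.113), not called. Rpl10l was at 0 in every library.

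Of 20 translation factors and other genes known to carry a TOP motif, 6 were called higher in microglia and none lower (median 0.26). They included Eef1b2, a subunit of the elongation factor that recharges Eef1a (36.3 to 61.6 CPM in saline, 74.9 to 110 CPM in LPS, log2 fold change 0.87, edgeR adjusted p = 0.00339), Eef1g (0.85, 0.00499) and Pabpc1, the poly(A) binding protein (0.63, 0.0247). In astrocytes 1 of the 20 was called, Pabpc1 (56.3 to 90 and 69.6 to 166 CPM, 0.75, edgeR adjusted p = 0.0381), with a median of 0.33, and 1 of 20 is near the 4.98% of all genes. Of 8 tested snoRNA host genes of the TOP class none was called (medians -0.08 and 0.42). None of 40 ribosome assembly genes, such as nucleolin and fibrillarin, was called in either cell type (medians 0.05 and 0.05). Of 20 growth regulators 1 was called in each cell type, a share near that of all genes. Eif4ebp1, the mTOR target that holds back cap-dependent translation, was called in microglia (3.31 to 6.89 and 8.41 to 14 CPM, 1.11, edgeR adjusted p = 0.00715). In astrocytes Sesn2, an inhibitor of mTOR complex 1 under amino acid shortage, was called (1.13, edgeR adjusted p = 0.0332), while Eif4ebp1 was at 1.34 (edgeR adjusted p = 0.0567). The mitochondrial ribosomal proteins had medians of 0.12 (none of 76 called) and 0.18 (1 of 77, Mrpl41), and nuclear genes of oxidative phosphorylation 0.17 and 0.20 (none of 71 called). The members' medians of 0.35 and 0.41 stand beside these values as descriptions only.

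**Figure D5:**
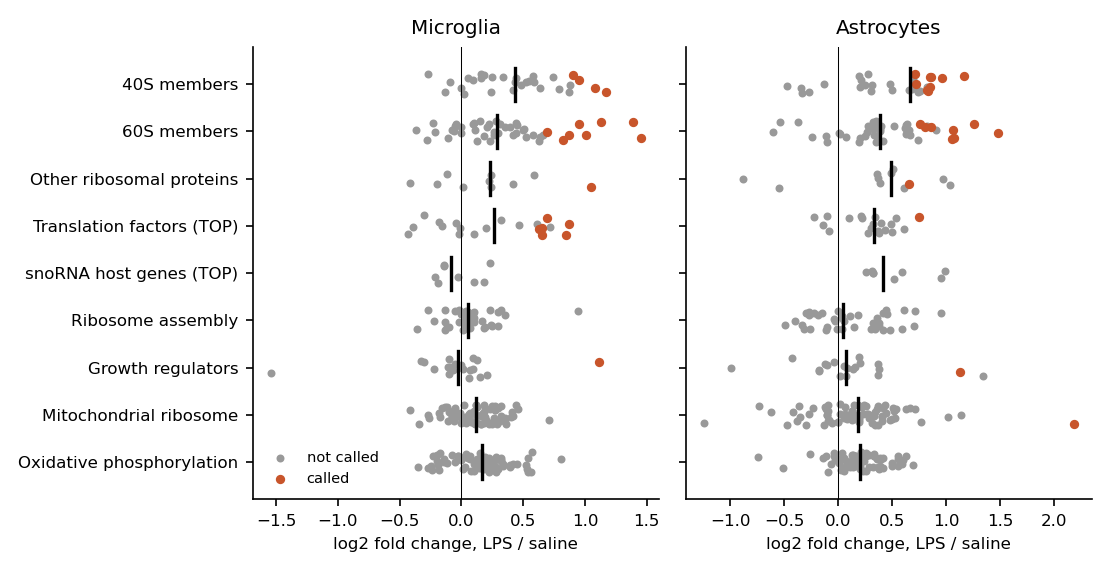
Log2 fold change of LPS over saline, averaged over genotypes, for each tested gene (points) of the 40S and 60S members and of 7 other gene lists, with the list median as a bar and called genes in orange, microglia left and astrocytes right. The 40S and 60S rows hold 12 called genes in microglia and 17 in astrocytes, and the assembly row has none.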

How the data were processed

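Per the labels' protocols, total RNA of immunopanned cells went into Ovation V2 and then NEBNext Ultra library kits. The submitters' processing notes list STAR 2.6.0c as aligner and HTSeq as counter and name GRCm38 and GRCm39 without a role; strand setting, counting mode and annotation release were not given in the sources used here. The authors deposited whole-number read counts per Ensembl gene, unnormalised, for 53700 identifiers in microglia and 55487 in astrocytes. Rows that name no gene were left out of library sizes and tests; their largest, reads outside genes, is given with the results. Identifiers were given symbols from a reference table (52093 and 55141 matched).

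Counts were fitted in edgeR 4.0.16 (R 4.3.3) per cell type: filterByExpr (minimum count 10, minimum total 15), TMM scaling, 1 mean per group, robust quasi-likelihood, glmQLFTest, two-sided, Benjamini-Hochberg over all genes tested (22230 in microglia, 18188 in astrocytes). Comparisons between cell types used all 24 libraries and 24607 genes. There were 15 comparisons, and a gene was called at an adjusted p under 0.05. Fold changes carry the fit's SE or 95% interval, which cover counting error and the spread between libraries. CPM are TMM-scaled, and intervals treat reads without molecular identifiers as counts. Transcript sequences and lengths are those of GENCODE release 21. Scripts were tested on simulated data. Named were up to 10 called members a direction and comparison by smallest p (otherwise the 3 smallest p), the 3 highest and lowest levels, and genes of known role; for other lists, at most 3 called genes. A few genes the rule would name are not reported here by name; counts include them. The members, lists and comparisons were chosen with earlier results of these data known; the grouping by role and the split at 50% unique sequence were set after the values were seen.

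Same-numbered libraries of the 2 genotypes deviated together in LPS astrocytes alone (correlations 0.2 to 0.43, 3 of 3 best with their own number). The main fits, which gave the LPS astrocyte values above, did not treat them as pairs. The astrocyte test of LPS against saline averaged over genotypes thus counted same-numbered LPS libraries as independent. Its p-values can therefore be too small. An alternative fit with the numbers as pairs was run only for the genotype comparisons, where it gave no call of a member. Alternatives were RLE factors, library totals, tables without mitochondrial and ribosomal RNA, DESeq2 1.42.0, other filters, sex, reads outside genes, a replicate block, fits of the groups compared alone, and single libraries dropped in turn.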

Additional observations from a re-analysis of the deposited data

How the results depend on the processing

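The members' rise after LPS kept its direction in every alternative run: the median log2 fold change averaged over genotypes stayed positive and within 0.22, the SD between libraries of a group. Counts of called members moved more. In microglia, averaged over genotypes (12), library totals and DESeq2 gave 20, no filter 24, and sex from the labels or from transcripts 7; libraries left out in turn gave 9 to 17. In control microglia (0), the counts were 4 with library totals or DESeq2, 10 with no filter, 8 with reads outside genes as a covariate, and 1 without mitochondrial and ribosomal RNA, with a minimum count of 50 or with the replicate block; left-out libraries gave 0 to 2. In knockout microglia (1), RLE factors, no mitochondrial and ribosomal RNA or a minimum count of 50 gave 2, library totals 10, DESeq2 9, no filter 15, sex 0 by either reading, reads outside genes 7, the replicate block 3 and only the groups compared 7; left-out libraries gave 0 to 8. In astrocytes, averaged (17), the second LPS libraries left out gave 3, and single libraries 8 to 22. In control astrocytes (1), library totals, a minimum count of 50, sex by either reading, the replicate block and only the groups compared gave 2, DESeq2 3, no filter 5, reads outside genes 0, the third LPS libraries left out 5 and the second 0; single libraries gave 0 to 4. In knockout astrocytes (4), DESeq2, the replicate block and the third LPS libraries left out gave 9, no filter 11, reads outside genes 7, only the groups compared 1 and the second LPS libraries left out 1; single libraries gave 0 to 5. The cause of each was not tested. No alternative called a member for genotype or for a difference between responses.

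Between cell types, the median of -0.70 became -0.39 with RLE factors or DESeq2 and 0.91 with library totals, where Rpl8 (0.07), Rps9 (0.56), Rpl14 (0.43), Rps4x (0.33), Rpl21 (0.39), Rpl7a (0.39) and Rpl23 (0.17) turned positive; left-out libraries gave 21 to 38 calls. Same-numbered libraries, outside LPS astrocytes, did not deviate together throughout (correlations from -0.18 to 0.56). In knockout astrocytes the saline and LPS libraries were 3 of 3 best with their own number, at low correlations of 0.09 to 0.11. Elsewhere the replicate block rests on a shared number only. With it, 16 members instead of 12 were called in microglia and 21 instead of 17 in astrocytes, averaged over genotypes. Alternatives for sex from transcripts, the second LPS astrocyte libraries and exon length were chosen after seeing the data. Depth limits the rarest members, with as few as 3 reads in a library.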
